A study of Mus musculus with 14 samples.

Results

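The peaks described here are those that the authors' annotation placed nearest to an olfactory receptor gene in mouse muscle cells. A peak is a stretch of genome where more sequenced fragments were recovered with an antibody than with a non-specific antibody (IgG). Members were all peaks outside the mitochondrial genome whose named gene began with Olfr followed by a digit, in each of 10 peak lists. They numbered 4109 of 517016 peaks, or 0.795%, and carried 1004 gene names. The rule used names alone and no measured value.

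The cells were C2C12, a mouse myoblast line that fuses into myotubes when serum is lowered, taken on day 2 of differentiation. In the siMyolinc groups a small interfering RNA at 10 nM had been given to knock down Myolinc, a long noncoding RNA; whether control cells received a control siRNA or none is not in the labels. The study asked whether Myolinc and the DNA- and RNA-binding protein TDP-43 act together at muscle genes. Chromatin was precipitated with antibodies to TDP-43, to MyoD and Myogenin, transcription factors that drive muscle differentiation, and to the elongating form of RNA polymerase II, which carries phosphate on serine 2 of its tail (Pol II S2P). There were 4 siMyolinc libraries with a peak list, 1 for each antibody, and 6 control libraries, 3 of TDP-43 and 1 for each other antibody. The 4 input and IgG samples of both conditions were not analysed here. Nothing in the labels says whether the 3 TDP-43 controls came from separate cultures, so a p-value here reflects the spread of these libraries alone, and that spread may be technical.

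Olfactory receptors are G protein-coupled receptors that bind odorants at the cilia of sensory neurons in the nose. They form the largest gene family of the mouse, lie in dense clusters on many chromosomes, and mostly have a coding region without introns. Each olfactory neuron transcribes a single receptor allele, and the clusters are otherwise packed in repressive chromatin. The clusters are rich in LINE-1 elements, a class of retrotransposon that copies itself through RNA.

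The sequences below are promoters of olfactory receptor genes that a peak touched. RefSeq windows of 300 bases, from 250 bases before to 50 bases after the start on GRCm38.p6, were found for 944 olfactory receptor genes (948 windows). A peak touched 64 of the 948 windows (6.75%), 63 in 1 list alone and 1 in 3 lists, against 6467 of 31903 windows of other genes (20.3%). That one belonged to Olfr212, and it is shown with the windows touched by the peaks of highest percentile with MyoD, Myogenin and Pol II S2P (Olfr1394 tied with Olfr317). These 4 were chosen after their values were seen. Capitals mark the bases that lie inside a peak.
Olfr212: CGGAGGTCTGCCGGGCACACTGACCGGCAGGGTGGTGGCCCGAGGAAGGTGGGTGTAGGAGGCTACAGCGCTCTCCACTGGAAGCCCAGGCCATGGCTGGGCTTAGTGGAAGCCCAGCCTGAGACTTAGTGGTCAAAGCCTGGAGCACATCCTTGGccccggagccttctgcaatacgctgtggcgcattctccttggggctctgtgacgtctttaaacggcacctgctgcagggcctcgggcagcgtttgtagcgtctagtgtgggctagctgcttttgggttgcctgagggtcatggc
Olfr113: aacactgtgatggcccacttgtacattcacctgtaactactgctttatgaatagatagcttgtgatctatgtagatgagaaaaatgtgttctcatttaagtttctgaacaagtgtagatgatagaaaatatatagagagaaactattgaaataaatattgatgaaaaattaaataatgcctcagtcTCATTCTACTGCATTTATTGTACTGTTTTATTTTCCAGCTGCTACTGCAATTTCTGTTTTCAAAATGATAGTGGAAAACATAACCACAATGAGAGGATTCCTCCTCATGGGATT
Olfr351: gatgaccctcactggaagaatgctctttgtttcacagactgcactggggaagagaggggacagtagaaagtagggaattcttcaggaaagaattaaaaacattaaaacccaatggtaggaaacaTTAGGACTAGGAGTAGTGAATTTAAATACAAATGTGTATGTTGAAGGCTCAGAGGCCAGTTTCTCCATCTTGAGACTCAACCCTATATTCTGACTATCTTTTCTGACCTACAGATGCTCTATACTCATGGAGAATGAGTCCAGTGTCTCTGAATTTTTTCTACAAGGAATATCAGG
Olfr1394: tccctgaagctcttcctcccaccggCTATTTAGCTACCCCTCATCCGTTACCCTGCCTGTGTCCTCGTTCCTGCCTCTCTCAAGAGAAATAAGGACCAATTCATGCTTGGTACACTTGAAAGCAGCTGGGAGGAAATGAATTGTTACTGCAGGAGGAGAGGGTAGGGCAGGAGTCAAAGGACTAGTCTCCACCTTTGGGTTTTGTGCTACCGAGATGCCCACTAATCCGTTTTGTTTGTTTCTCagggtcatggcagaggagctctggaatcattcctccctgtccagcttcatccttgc

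The Olfr212 window is chr6:116506266-116506565 on the plus strand, and 156 of its bases lay inside peaks. The peaks held 8 tags in TDP-43 control replicate 2, 6 tags in TDP-43 control replicate 3 and 13 tags in the Pol II S2P siMyolinc library, a tag being 1 sequenced fragment as read from the steps of the peak score. Its GC content was 62.3%, while olfactory receptor windows averaged 36.1% ± 6.23 (SD over 948 windows) and all other windows 54.3% ± 11.0 (SD over 31903 windows). The Olfr113 window, chr17:37575372-37575671 on the minus strand, carried the sequence CAGCTG, the core of the E-box read by MyoD and Myogenin, from position 222 counted from the 5′ end. That E-box lay inside a MyoD control peak of 19 tags at percentile 99.5 of its list. The Olfr1394 window, chr11:49159766-49160065 on the plus strand, carried CAGCTG from position 123 inside a Pol II S2P siMyolinc peak of 15 tags. The Olfr351 window, chr2:36860297-36860596 on the minus strand, held no CAGCTG and lay under a Myogenin control peak of 26 tags.

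On both strands, CAGCTG stood in 8.44% of olfactory receptor windows and in 16.5% of all other windows, against 16.3% of all windows together. The looser E-box CANNTG, which includes CAGCTG, stood in 77.5% of olfactory receptor windows, 72.2% of the others and 72.3% of all. The run TGTGTGTGTGTG or its reverse complement, a form of the TG repeat that TDP-43 binds, stood in 1.05% of olfactory receptor windows, 1.01% of the others and 1.01% of all. The share with CAGCTG differed most between the sets, which also differ in GC content as given above; these differences were not tested. Among the 64 touched olfactory receptor windows 14.1% held CAGCTG, against 17.8% of the 6467 other windows touched by a peak. None of the 64 held the TG run, against 0.897% of the 6467, a share at which 64 windows are too few to show a difference.

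Peaks nearest olfactory receptor genes made up 0.613% to 1.07% of a list. After knockdown the shares were 0.613% with TDP-43 (153 of 24960 peaks), 0.723% with MyoD (792 of 109522), 0.890% with Myogenin (182 of 20441) and 0.659% with Pol II S2P (765 of 116064). In the TDP-43 controls they were 0.630% (187 of 29703 peaks), 0.738% (78 of 10571) and 0.698% (57 of 8162). In the other controls they were 0.779% with MyoD (560 of 71878), 1.07% with Myogenin (1235 of 115000) and 0.933% with Pol II S2P (100 of 10715). The siMyolinc share was below every control share of its antibody. The Myogenin control share, with a 95% Wilson interval of 1.02% to 1.14%, was the highest of the 10.

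**Figure D1:**
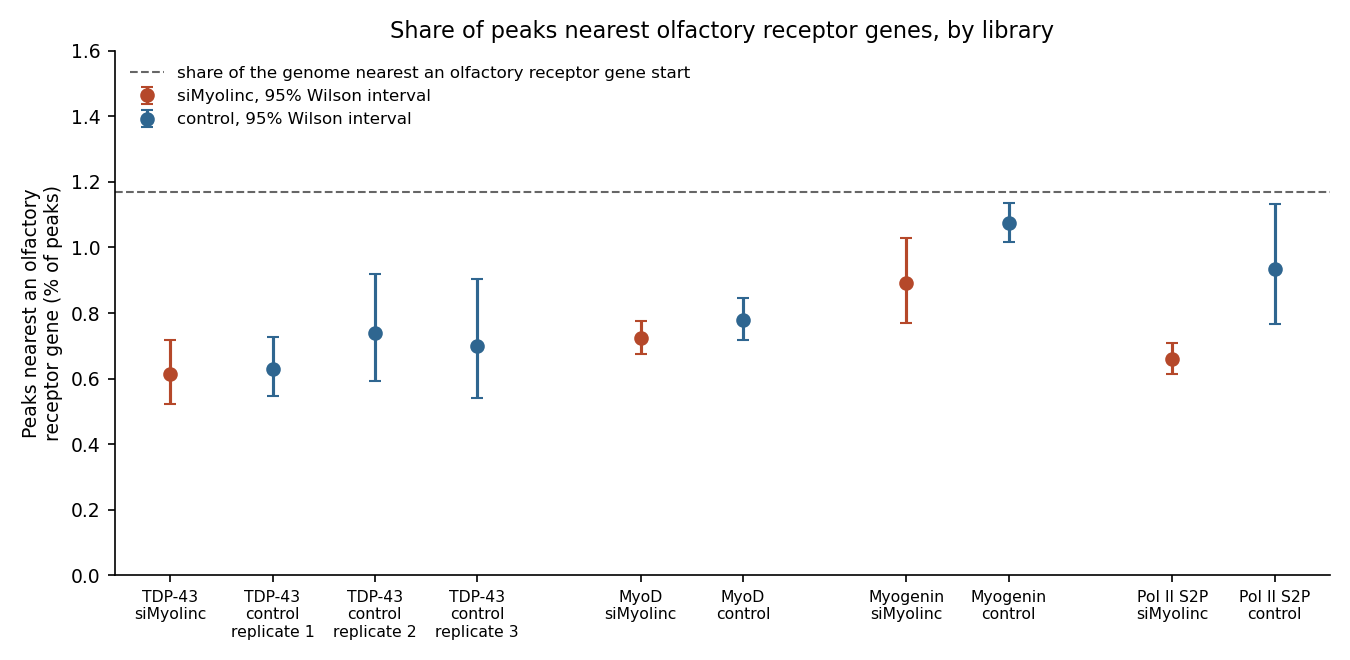
Share of peaks nearest an olfactory receptor gene (percent of all peaks outside the mitochondrial genome) in each library, with 95% Wilson intervals for counting error; the dashed line is the share of the genome nearest an olfactory receptor gene start (1.17%). All 10 shares lie below the line, and the siMyolinc point of each antibody lies below its controls.

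For TDP-43 the siMyolinc share was 0.613%, against 0.689% ± 0.0548 in control (SD, n = 3), a difference of -0.0756 percentage points. An exact two-sided permutation test over the 4 libraries gave p = 0.5, where the smallest p this design allows is 0.25. In the upper scoring part of each list, from its median up, the TDP-43 difference was 0.0130 percentage points, with the opposite sign. Averaged over the 4 antibodies the siMyolinc share was 0.721%, against 0.869% in control, a difference of -0.147 percentage points, and it was lower in 4 of 4 antibodies. Permuting the condition within each antibody (exact, two-sided, 32 labelings) gave p = 0.0625, which did not pass 0.05; antibodies are not replicates of a condition.

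The call over antibodies changed with the settings. With every list shortened to its best-scoring peaks, as many as the shortest list of 8162 had, the difference was -0.234 percentage points and the exact permutation p was 0.03125, the smallest that 32 labelings can give. Without TDP-43 control replicate 1 it was -0.155 with an exact permutation p of 0.0417, the smallest that 24 labelings can give. From the median score up it was -0.166 (exact permutation p = 0.1875), with the share lower in 3 of 4 antibodies. Without satellite, simple and low-complexity repeats it was -0.138 (exact permutation p = 0.09375). There the TDP-43 difference was -0.0333 percentage points, and the difference of every other antibody was below 0 as well. In whole lists the MyoD difference was -0.0560 percentage points (95% interval of the difference, -0.139 to 0.0247), about the size of the SD between TDP-43 controls. The Myogenin difference was -0.184 (-0.318 to -0.0336) and the Pol II S2P difference -0.274 (-0.480 to -0.102). These 3 had 1 library per condition, so the intervals cover counting error only and no replicate check was possible.

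Depth and peak shape moved with the condition as well. If scores are scaled to 10000000 tags, which no header states, the siMyolinc libraries held 3040130 to 3774955 tags, against 962387 to 1394415 for the TDP-43 controls and 1455043 for the Pol II S2P control; the MyoD and Myogenin controls held 3378327 and 3400215. The MyoD and Myogenin siMyolinc lists stood apart, with a median peak width of 75 bp against 217 to 249 bp in the other 8 lists, and with 81.4% and 92.7% of tags inside peaks. With TDP-43 and Pol II S2P alone, a choice made after seeing the data, the mean difference was -0.175 percentage points with an exact permutation p of 0.25. Whether depth or peak shape had a part in the share was not tested.

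Olfactory receptor genes held a smaller share of the peaks than of the genome. Starts of olfactory receptor genes were the nearest gene starts for 31.0 Mb of 2655 Mb, or 1.17% of the genome, in the RefSeq gene table on GRCm38.p6 (the build the authors' files name mm10). The table placed 98.2% of the members nearest an olfactory receptor gene as well. Dividing the share of peaks by that share of the genome gave 0.525 with TDP-43, 0.619 with MyoD, 0.762 with Myogenin and 0.564 with Pol II S2P after knockdown. The controls gave 0.539, 0.632 and 0.598 with TDP-43, 0.667 with MyoD, 0.919 with Myogenin and 0.799 with Pol II S2P. The ratio was below 1 in 10 of 10 lists, and its upper 95% limit was highest for the Myogenin control at 0.972.

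Other large clustered families gave different ratios, though the differences between families were not tested. Vomeronasal receptors, the pheromone receptors of the vomeronasal organ, ranged from 0.292 to 0.584 and were below 1 in 10 lists. Beta-defensins, secreted antimicrobial peptides, ranged from 0.431 to 1.15 and were below 1 in 7 lists. Keratin-associated proteins, components of hair, ranged from 0.738 to 2.60 and were below 1 in 5 lists. How much of each family's territory can be read by uniquely placed fragments was not measured.

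Fewer individual receptors were named than genes at large. In the siMyolinc lists 135 of 1110 protein-coding olfactory receptor genes (12.2%) were named by at least 1 TDP-43 peak, against 42.5% of 21900 protein-coding genes. With MyoD these values were 472 genes (42.5%) against 71.1%, with Myogenin 160 genes (14.4%) against 37.4%, and with Pol II S2P 465 genes (41.9%) against 72.3%. In every siMyolinc list the receptors' share was below that of all genes. A peak names its nearest gene, so a gene with little sequence around it can be named less often. Receptors are 1110 of the 21900 genes, while their starts were nearest for 1.22% of the genome when protein-coding starts alone were used. The part of gene spacing in these shares, and in those of the controls below, was not tested.

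In control the receptors were again below all genes. TDP-43 control replicates 1, 2 and 3 named 155 (14.0%), 67 (6.04%) and 49 (4.41%) of the 1110 receptor genes, against 46.5%, 25.4% and 21% of all protein-coding genes. MyoD control peaks named 384 (34.6%) against 61%, Myogenin control peaks 648 (58.4%) against 68.8%, and Pol II S2P control peaks 82 (7.39%) against 25.2%. The narrowest gap was in the Myogenin control list. Pooled over the 10 lists, 976 of 1110 receptor genes (87.9%) were named at least once, against 84.2% of all protein-coding genes.

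A promoter peak also named a smaller share of receptors than of all genes. The authors' class promoter-TSS covers peaks around an annotated transcription start. After knockdown, such a peak named 4 receptor genes (0.360%) with TDP-43 against 2.34% of all protein-coding genes, 24 (2.16%) with MyoD against 10.6%, 11 (0.991%) with Myogenin against 2.31% and 27 (2.43%) with Pol II S2P against 8.39%. In the TDP-43 controls 6 (0.541%), 1 (0.0901%) and 1 (0.0901%) receptor genes were named, against 4.83%, 2% and 1.58%. In the remaining controls 19 (1.71%) were named with MyoD against 3.79%, 53 (4.77%) with Myogenin against 6.16%, and 3 (0.270%) with Pol II S2P against 1.45%. The receptors were below all genes in every list, and the Myogenin control had the most receptor promoters.

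The 6 largest clusters showed the low density directly. A cluster was a run of olfactory receptor genes with gaps of at most 1 Mb, and 23 of 64 such runs held 10 genes or more. The largest, chr2:85330967-90401674 from Olfr987 to Olfr1274, held 293 genes and 531 peaks over the 10 lists, of which 515 were members. Its peak density over that of chromosome 2 was 0.308 with TDP-43, 0.417 with MyoD, 0.429 with Myogenin and 0.354 with Pol II S2P after knockdown. In control it was 0.308, 0.208 and 0.595 with TDP-43, 0.396 with MyoD, 0.778 with Myogenin and 0.491 with Pol II S2P. All 10 values were below 1, and the siMyolinc values lay among the control values.

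The cluster chr7:102476773-105369317, from Olfr543 to Olfr692, holds class I receptors, the branch shared with fish, and surrounds the beta-globin genes. It held 158 receptor genes and a median density ratio of 0.572 over the 10 lists. The clusters on chromosome 9 (Olfr160 to Olfr986), chromosome 19 (Olfr1417 to Olfr1505) and chromosome 7 (Olfr693 to Olfr519) had medians of 0.522, 0.602 and 0.823. Like the chromosome 2 cluster, these 4 were below 1 in 10 lists. The chromosome 10 cluster from Olfr9 to Olfr827 had a median of 0.557 and was below 1 in 9 lists, the exception being TDP-43 control replicate 2 at 1.14 with 6 peaks.

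**Figure D2:**
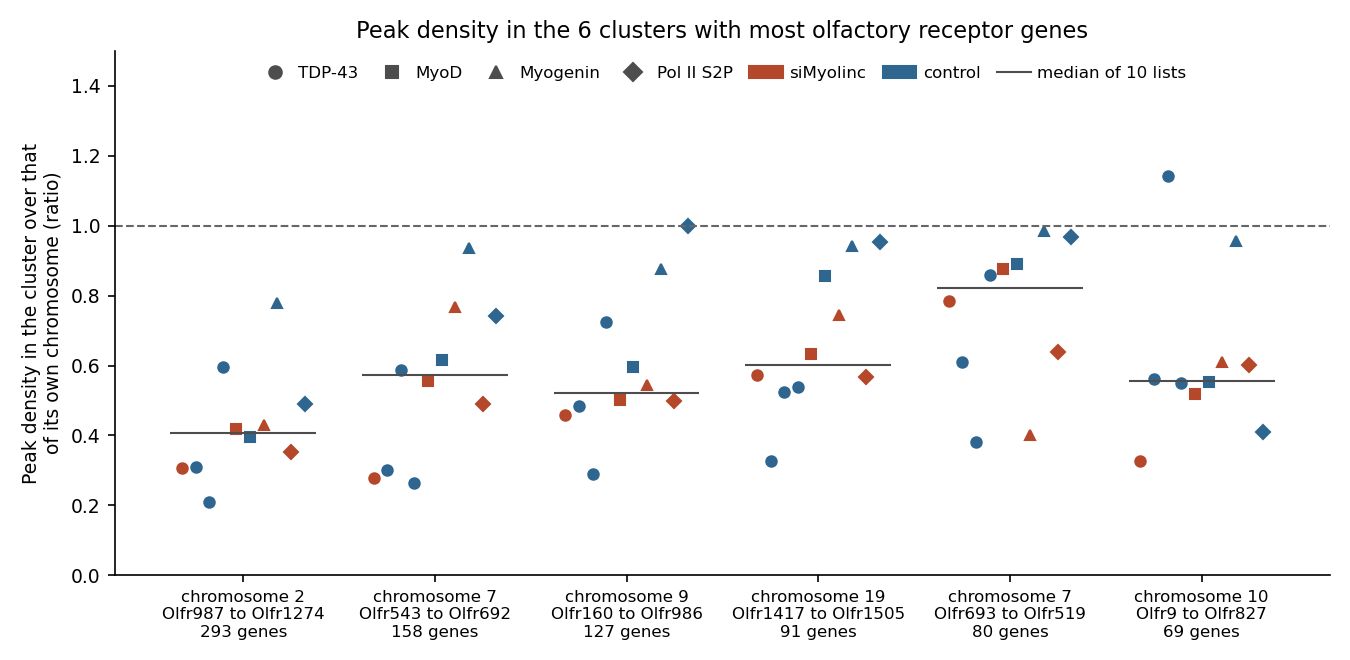
Peak density inside each of the 6 clusters with most olfactory receptor genes, divided by the density on the same chromosome in the same list (ratio, vertical axis). Points are libraries, the bar is the median of the 10 lists and the dashed line marks 1; the only point above the line is TDP-43 control replicate 2 in the chromosome 10 cluster.

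Of the 23 clusters with 10 genes or more, 4 had a median ratio above 1. They lie on chromosome 15 (Olfr288 to Olfr278-ps1, 12 genes, median 1.17), chromosome 13 (Olfr1370 to Olfr1359, 13 genes, below 1 in 2 lists), chromosome 7 (Olfr522 to Olfr542-ps1, 25 genes, median 1.05) and chromosome 11 (Olfr30 to Olfr225, 26 genes, median 1.29). The last of these, chr11:58454915-59614225, held 402 peaks, of which 58 were members, so that most of its peaks were nearest to other genes. Its density ratio was 1.13 with TDP-43, 1.20 with MyoD, 1.39 with Myogenin and 1.06 with Pol II S2P after knockdown. The TDP-43 controls gave 2.58, 2.96 and 3.39, the MyoD control 1.11, the Myogenin control 0.910 and the Pol II S2P control 1.52. The 3 TDP-43 controls were the highest of the 10. These 4 were named after their values were seen.

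Members lay closer to their named gene than other peaks did. A peak is given its nearest gene and receptors lie in dense clusters, so gene spacing limits this distance. The distances therefore do not describe binding. The median distance to the start in siMyolinc lists was 7.55 to 8.92 kb for members and 32.5 to 38.1 kb for other peaks. In control lists it was 6.68 to 10.0 kb for members and 19.8 to 55.4 kb for other peaks. The receptor named by most peaks was Olfr161 on chromosome 16 (chr16:3592398-3593339), with 70 peaks over 10 lists. It is one of the 2 receptors named in 10 of 10 lists, with Olfr1323 on chromosome X (32 peaks). Of the Olfr161 peaks 17 came from the Myogenin control list and 13 each from the MyoD and Pol II S2P siMyolinc lists.

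The members were mostly intergenic and often inside a LINE. The intergenic class held 79.7% to 82.8% of members and 46.7% to 49.5% of other peaks in the siMyolinc lists. In the control lists it held 79.5% to 88.0% of members and 35.4% to 56.0% of other peaks. Introns held 3.51% to 7.84% of members and 27.5% to 41.8% of other peaks over the 10 lists. The difference ran the same way in 10 of 10 lists for both classes.

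LINE elements accounted for more members than for other peaks in every list. After knockdown the LINE share was 37.3% of members against 9.59% of other peaks with TDP-43, 31.7% against 11.6% with MyoD, 35.2% against 11.1% with Myogenin and 32.9% against 10.4% with Pol II S2P. In the TDP-43 controls it was 40.6% against 8.98%, 44.9% against 9.43% and 43.9% against 8.98%. In the other controls it was 33.8% against 12.0% with MyoD, 31.2% against 14.6% with Myogenin and 47.0% against 12.5% with Pol II S2P. The lowest member share was above the highest share of other peaks, and no pair of Wilson intervals overlapped. The LINE share of the sequence around receptor genes was not measured, so these values do not show a preference of peaks for LINEs.

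**Figure D3:**
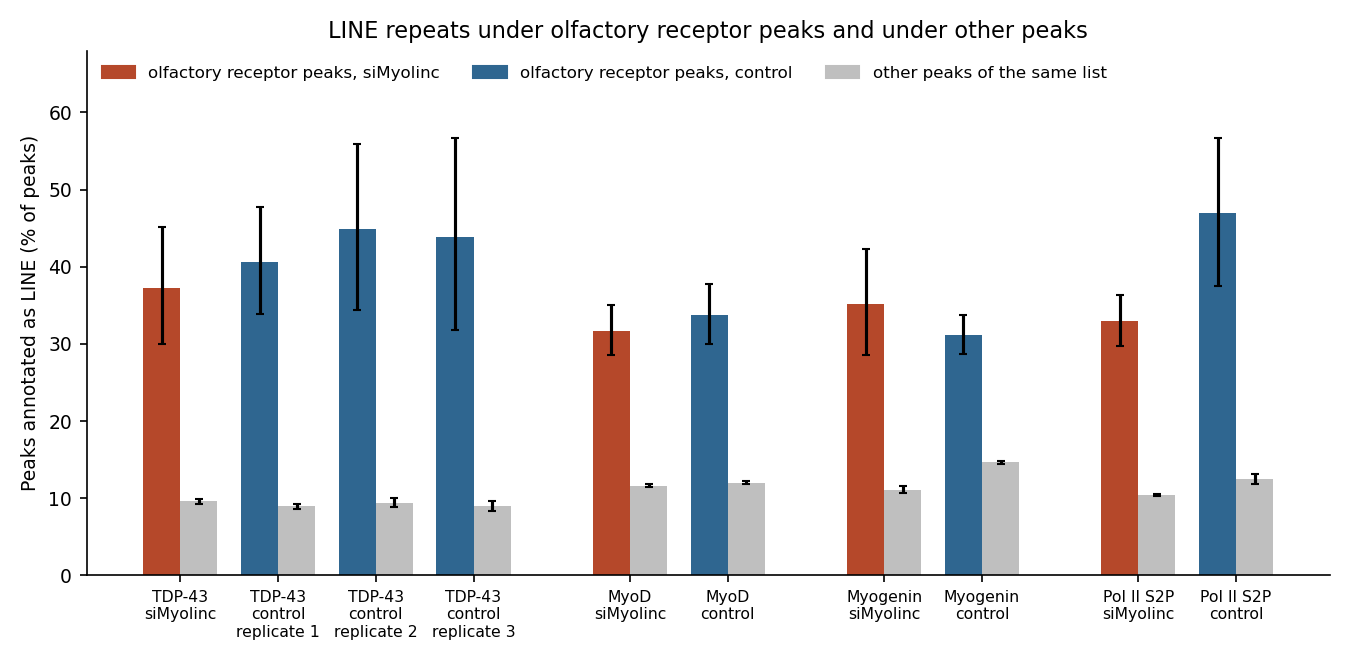
Percent of peaks that the authors' annotation placed in a LINE, for olfactory receptor peaks (left bar of each pair) and other peaks of the same list (right bar), with 95% Wilson intervals. Member bars stand between 31.2% and 47.0% and the bars of other peaks between 8.98% and 14.6%.

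The excess held among intergenic peaks alone, where LINE shares were 36.4% to 51.6% of members and 14.7% to 25% of other peaks. Nearly all LINE members, 1377 of 1381 (99.7%), were LINE-1, as were 96.0% of the LINE peaks among other peaks. The names met most often were L1Md_F2 with 182 members (13.2% of LINE members, 10.7% of other LINE peaks), L1_Mus3 with 126 (9.12%, 6.17%) and L1_Mus1 with 77 (5.58%, 4.49%). Peaks nearest vomeronasal receptor genes were similar in class, with 34.7% to 57.4% in a LINE and 74.7% to 89.3% intergenic over the 10 lists. L1Md elements are young LINE-1 copies that differ little from each other, so a fragment may come from another copy than the one it was assigned to. LTR elements, relics of retroviruses, were also more frequent among members in 9 of 10 lists (3.51% to 18.3% of members, 4.42% to 11.1% of other peaks), and SINEs in 1 of 10.

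For TDP-43 the composition of the members was compared between conditions over 13 classes, with an exact permutation test and Benjamini-Hochberg adjustment. LINE made up 37.3% of members after knockdown and 43.1% ± 2.21 in control (SD, n = 3), a difference of -5.87 percentage points with an exact permutation p = 0.25 and an adjusted p of 0.812. Simple repeats and low-complexity sequence made up 0 of 153 members after knockdown, which allows a share of up to 1.96%, and 15.0% ± 2.23 in control (SD, n = 3; exact permutation p = 0.25, adjusted p 0.812). The 3 control values were 13.4%, 14.1% and 17.5%. No class passed, and 0.25 is the smallest p that 1 library against 3 can give.

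Other peaks of the TDP-43 lists differed in the same direction. Simple repeats and low-complexity sequence made up 1.50% of other peaks after knockdown and 9.60%, 11.0% and 9.12% in the controls. The Pol II S2P lists had 1.96% of members after knockdown and 11.0% in control. Repeats named (TG)n or (CA)n, the repeat that TDP-43 binds as read on either strand, were counted after the class values were seen and covered 0 of 153 TDP-43 members after knockdown, and 8 of 187, 5 of 78 and 4 of 57 in the controls. Among other peaks they covered 0.625% after knockdown and 4.72%, 5.42% and 4.53% in the controls, so members were near the level of their list. Among Pol II S2P members they covered 3 of 765 (0.392%) after knockdown and 4 of 100 in control, against 0.623% and 4.08% of other peaks. The TDP-43 and Pol II S2P controls, which had many such peaks, were the libraries of low depth given above, and the part of depth was not tested.

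Exonic peaks made up 7.19% of TDP-43 members after knockdown and 6.42%, 11.5% and 8.77% in the TDP-43 controls, against 6.93% of other peaks after knockdown and 18.9%, 24.2% and 25.7% in the controls. In the Pol II S2P lists the members had 5.36% after knockdown and 5.00% in control, against 3.75% and 21.5% of other peaks. Those controls thus had a higher exon share among other peaks than among members. The promoter-TSS class held 2.61% to 6.04% of members and 1.98% to 3.08% of other peaks in the siMyolinc lists, and 1.28% to 4.45% of members and 1.41% to 5.23% of other peaks in the control lists. It was higher among members in 6 of 10 lists, all but the 3 TDP-43 controls and the Pol II S2P control, with the highest ratio in the Myogenin control at 4.45% of members and 1.41% of other peaks.

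Members did not rank above other peaks by score. Each list carries the authors' peak score, compared here only inside a list, as a percentile in which 100 is the best. In the siMyolinc lists the median member lay at percentile 41.7 with TDP-43, 48.0 with MyoD, 42.4 with Myogenin and 46.9 with Pol II S2P, against 41.7, 51.4, 50.0 and 46.9 for other peaks. In the TDP-43 controls it lay at 37.7, 48.3 and 49.2, against 50.5, 48.3 and 49.2. In the MyoD, Myogenin and Pol II S2P controls members and other peaks had the same medians, 46.7, 47.8 and 50.2. The median was lower for members in 3 lists and equal in 7, where many peaks share a score. The mean percentile of members was 44.7 to 48.0 after knockdown and 43.1 to 49.8 in control, below that of other peaks (50.0 to 50.1) in 10 of 10 lists. The top 10% of a list by score held 5.23% to 10.1% of members and 8.28% to 10.4% of other peaks after knockdown, and 3.85% to 11.1% of members and 7.48% to 12.3% of other peaks in control.

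**Figure D4:**
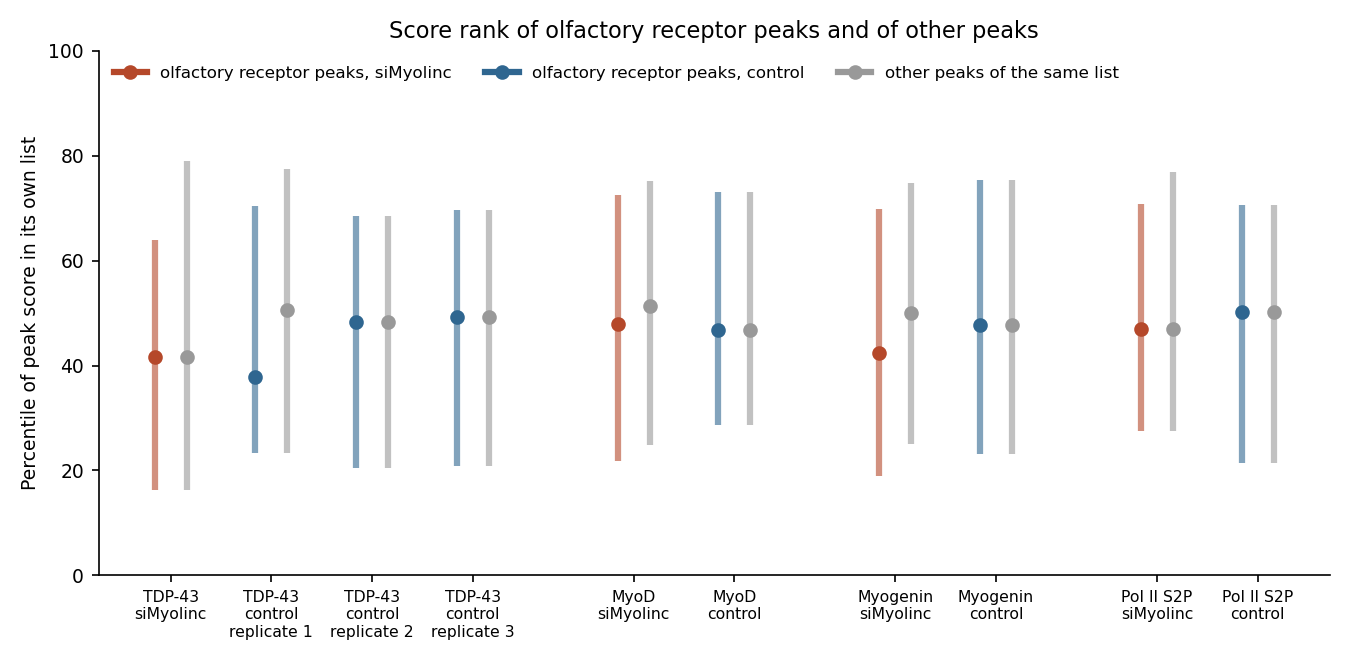
Percentile of peak score inside each list (100 is the highest) for olfactory receptor peaks (left of each pair) and other peaks (right, grey); the dot is the median and the bar spans the quartiles. The member median lies below that of other peaks in TDP-43 control replicate 1 and in the MyoD and Myogenin siMyolinc lists, and on it in the other 7.

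In whole tags the median member was close to the median other peak. After knockdown it held 7 tags against 7 with TDP-43, 23 against 24 with MyoD, 121 against 137 with Myogenin and 11 against 11 with Pol II S2P. In control it held 7, 6 and 6 tags against 8, 6 and 6 with TDP-43, 8 against 8 with MyoD, 15 against 15 with Myogenin and 6 against 6 with Pol II S2P. In every list the strongest member held fewer tags than the strongest other peak, but members are far fewer than other peaks. With TDP-43 the strongest member held 16 tags after knockdown and 24, 12 and 12 in the controls. Other peaks there reached 50 tags after knockdown and 2828, 3670 and 4760 in the controls. With Pol II S2P these values were 32 against 76 after knockdown and 13 against 5235 in control. With MyoD they were 82 against 317 and 23 against 80, and with Myogenin 309 against 628 and 47 against 112. Tags are not comparable between libraries of different depth. An exact Poisson interval on 16 tags runs from 9.15 to 26.0.

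The strongest TDP-43 members were named for several receptors. In the siMyolinc list they were a peak in an L1Md_A element, at -1936 bp from the start of Olfr376, upstream of it (chr11:73369202-73369418, 16 tags, rank 61 of 24960), and a peak in the exon of Olfr222 (chr11:59571207-59571423, 15 tags, rank 108). TDP-43 control replicate 1 was led by peaks of 24 tags near Olfr487 (chr7:108202868-108203116, rank 126 of 29703) and 20 tags near Olfr370. Replicate 2 was led by 2 peaks of 12 tags at Olfr1390 and Olfr460, and replicate 3 by 2 peaks of 12 tags at Olfr284, in its exon, and Olfr1457. Of these 8 peaks 4 lay in L1Md elements and 2 in an exon.

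MyoD and Myogenin members of high rank were spread over other receptors. The MyoD siMyolinc list was led by a peak in an LTR element near Olfr1338 (82 tags, rank 27 of 109522) and a peak 118 bp after the start of Olfr1499 (chr19:13815433-13815507, 72 tags). The MyoD control list was led by a promoter peak at Olfr1300-ps1, a pseudogene, with its centre 16 bp after the start (chr2:111667338-111667568, 23 tags, rank 51 of 71878), and a peak near Olfr827 with 22 tags. The Myogenin siMyolinc list was led by a promoter peak at -551 bp from the start of Olfr133 (chr17:38148002-38148076, 309 tags, rank 98 of 20441), and the Myogenin control list by a peak near Olfr153 (47 tags, rank 65 of 115000). None of these 6 peaks was met by another list.

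Pol II S2P members of highest rank lay mostly away from receptor genes. The siMyolinc list was led by peaks near Olfr729 (32 tags, rank 326 of 116064) and Olfr417 (30 tags), at -18907 and -9179 bp from the starts. The control list was led by 2 peaks of 13 tags, at -349504 bp from the start of Olfr161 and at 2396 bp from that of Olfr1419. The strongest promoter-TSS member was at Olfr1023 after knockdown (19 tags, percentile 91.4) and at Olfr1469 in control (6 tags, percentile 50.2).

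Most sites were seen once. Overlapping members of all lists merged into 3841 sites, of which 3651 (95.1%) came from 1 list, 136 from 2, 34 from 3, 18 from 4, and 1 each from 5 and 6. Other peaks, merged in the same way, gave 468064 sites, of which 92.9% came from 1 list. The share of TDP-43 siMyolinc members met by a peak of any other list was 25.5%, against 21.2% of other peaks of that list. In the TDP-43 controls it was 35.3%, 57.7% and 57.9% of members, against 44.3%, 65.4% and 70.2% of other peaks. With the other antibodies it was 5.43%, 9.89% and 9.67% of members against 9.31%, 13.2% and 11.1% of other peaks in the MyoD, Myogenin and Pol II S2P siMyolinc lists, and 6.43%, 4.45% and 48.0% against 9.16%, 7.97% and 56.1% in their controls. The member value was below that of other peaks in 9 of 10 lists, the TDP-43 siMyolinc list being the exception, and the difference was not tested.

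TDP-43 control members were met by the other TDP-43 controls and the Pol II S2P control in larger shares than by the TDP-43 siMyolinc list. The MyoD and Myogenin controls met smaller shares than that list for each replicate, the highest being 3.51% of replicate 3 members with Myogenin. The Pol II S2P siMyolinc list exceeded the TDP-43 siMyolinc list for replicates 2 and 3 but not for replicate 1. These differences were not tested. Of replicate 1 members 8.02% (15 of 187) were met by the TDP-43 siMyolinc list, 15.5% (29) by replicate 2, 10.2% (19) by replicate 3 and 10.7% (20) by the Pol II S2P control, a narrower gap than for the other two replicates. Of replicate 2 members 8.97% (7 of 78) were met by the TDP-43 siMyolinc list, while 37.2% (29) were met by replicate 1, 23.1% (18) by replicate 3 and 26.9% (21) by the Pol II S2P control. Of replicate 3 members 7.02% (4 of 57) were met by the siMyolinc list, 33.3% (19) by replicate 1, 31.6% (18) by replicate 2 and 26.3% (15) by the Pol II S2P control. The Pol II S2P control list, with 10715 peaks, is shorter than the TDP-43 siMyolinc list, with 24960. Other peaks of replicate 2 gave 7.06% for the siMyolinc list and 19.6% for the Pol II S2P control, and so had the same order.

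The site met by most lists lies in an L1Md_F element in an intron, at -10992 bp from the start of Olfr460 (chr6:40560287-40560581). It held 10 tags in the TDP-43 siMyolinc library and 6, 12 and 7 in the TDP-43 controls, and 25 tags in the Pol II S2P siMyolinc library against 8 in its control. No MyoD or Myogenin peak met it. As above, tags are not comparable between libraries of different depth. The site met by 5 lists lies in an L1Md_F2 element near Olfr32 (chr2:90132457-90132720), with 140 tags in the Myogenin siMyolinc library, 11, 6 and 5 tags in the TDP-43 controls and 8 in the Pol II S2P control. It had no TDP-43 siMyolinc peak.

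All 3 TDP-43 controls met 12 sites. Of these, 2 (16.7%) were also met by the TDP-43 siMyolinc list and 6 by the Pol II S2P control list. Of the 1631 such sites of other peaks, 11.3% were met by the TDP-43 siMyolinc list and 38.8% by the Pol II S2P control list. The strongest by mean percentile, in an L1Md_A element near Olfr393 (chr11:73832434-73832746), held 18, 8 and 11 tags in the controls and no peak after knockdown. The site in the exon of Olfr222 (chr11:59571181-59571465) held 15 tags after knockdown and 9, 9 and 9 in the controls, and no other antibody met it. These tags are not comparable between conditions. A site in the exon of Olfr1349 (chr7:6515042-6515290) held no peak after knockdown and 8, 6 and 8 tags in the controls. Of the 12 sites 8 touched an L1Md element and 2 lay in exons.

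**Figure D5:**
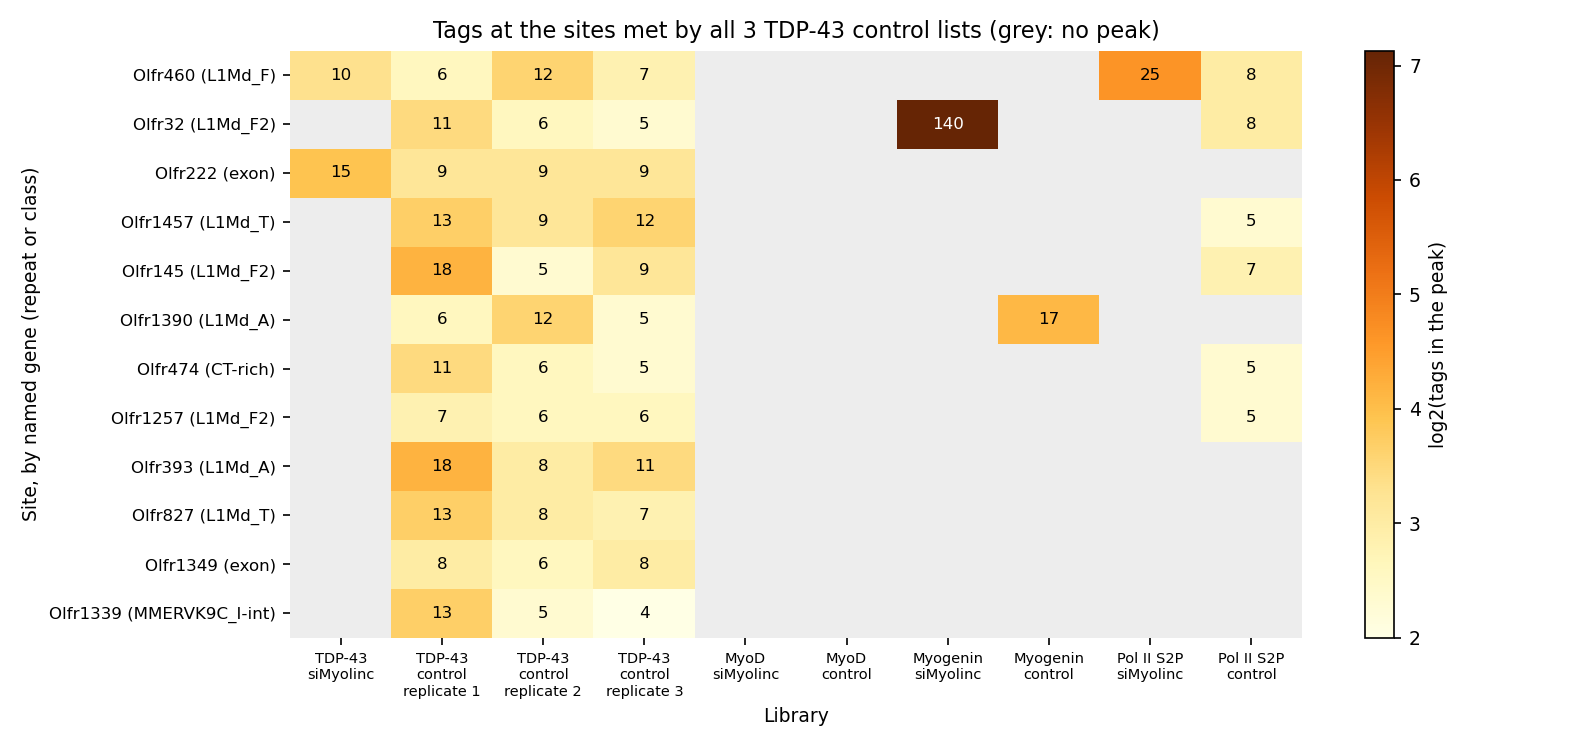
Tags in the peak at each of the 12 sites met by all 3 TDP-43 control lists (rows, by named gene with the repeat or class), in each library (columns); colour is log2 of the tags, which are not comparable between libraries, and grey marks no peak. The TDP-43 siMyolinc column has peaks at Olfr460 and Olfr222 only.

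By gene name, 16 receptors were named in all 3 TDP-43 controls and 7 of them also after knockdown. The 8 of highest mean percentile were Olfr393, Olfr222, Olfr1419, Olfr827, Olfr1457, Olfr145, Olfr460 and Olfr212, of which Olfr393, Olfr222, Olfr1419 and Olfr460 were named after knockdown. In all, 138 receptors were named after knockdown and 215 in any TDP-43 control, with 50 in both. Those 50 are named by peaks that need not overlap. Of the 138, 28.3% were also named in replicate 1, 15.2% in replicate 2 and 10.9% in replicate 3. Among other protein-coding genes named after knockdown these shares were 71.0%, 42.2% and 35.2%, and the difference was not tested.

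For MyoD, 211 receptors were named in both conditions, 43.5% of the 485 named after knockdown and 53.3% of the 396 named in control. For Myogenin 121 were shared, 73.8% of 164 after knockdown and 18.3% of 663 in control. For Pol II S2P 46 were shared, 9.64% of 477 after knockdown and 53.5% of 86 in control. The shorter list of each pair had the higher share. Over protein-coding genes other than receptors, the shared genes were 78.3% of those named after knockdown and 91.1% of those in control with MyoD, 90.7% and 50.5% with Myogenin, and 33.6% and 95.1% with Pol II S2P. The receptors were below these shares in every pair, beside their lower share of named genes given above, and the difference was not tested. Shared names need not mean overlapping peaks. A control peak of the same antibody met 6 of 792 MyoD members after knockdown (0.758%) and 3 of 182 Myogenin members (1.65%). With Pol II S2P it met 13 of 765 (1.70%). Other peaks of those siMyolinc lists gave 1.17%, 2.00% and 0.962%, and the differences were not tested.

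Receptors with a reported role outside the nose had their best peaks kilobases away from the start, or none. Olfr16, also called MOR23 and reported in mouse sperm and in regenerating mouse muscle, was named by 19 peaks in 8 lists. Its best peak in each of these lists lay 14210 to 78393 bp from its start. In the TDP-43 siMyolinc list, TDP-43 control replicate 1 and the Pol II S2P control, these were peaks of 6, 7 and 6 tags that overlapped in a LINE (chr1:172970870-172971086 after knockdown). Olfr544, a receptor of fat cells in mice, had 2 peaks in the Pol II S2P siMyolinc list and none elsewhere. The better held 8 tags at 3166 bp from the start. Olfr1393, which acts in glucose handling of the mouse kidney, had 1 peak in the MyoD and 1 in the Pol II S2P siMyolinc list. These held 30 tags at -2051 bp and 16 tags at -7874 bp from the start, and control had none. Olfr78, a sensor of lactate and short-chain fatty acids, had none in any list.

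Genes of olfactory signalling and receptor choice were named in larger shares than the receptors, which was not tested. A peak names its nearest gene, so genes with more sequence in and around them can be named more often. Gene size and spacing were not accounted for. Of a list of 20 such genes, at least 1 peak named 15 with TDP-43, 20 with MyoD, 13 with Myogenin and 20 with Pol II S2P after knockdown. In control these were 15, 13 and 14 with TDP-43, 18 with MyoD, 17 with Myogenin and 14 with Pol II S2P. These are 65% to 100% of the list after knockdown, where all protein-coding genes gave 37.4% to 72.3%, and 65% to 90% in control, where all gave 21% to 68.8%. Ano2, a calcium-activated chloride channel, and Cngb1, a channel subunit of olfactory neurons, were named in 10 lists by 89 and 45 peaks. Lhx2, a transcription factor of receptor choice, was named in 10 lists by 54 peaks. Omp, the marker protein of mature olfactory neurons, was named in 6 lists by 11 peaks, and Kdm1a, a demethylase needed for receptor choice, in 5 lists by 12. Promoter-TSS peaks named 1 to 4 of the 20 genes in a list.

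Named peaks are a weak check of cell identity, since no transcript was measured. Pol II S2P peaks named 9 of 12 muscle markers after knockdown and 4 of 12 in control, and 6 of 6 olfactory neuron markers after knockdown and 4 of 6 in control. Any protein-coding gene was named in 72.3% of cases after knockdown and 25.2% in control, so the muscle counts are near the share for all genes. The olfactory neuron markers stood above it, at 100% after knockdown and 66.7% in control. They are only 6 genes, and the difference was not tested. Omp and Cnga2, a channel subunit of olfactory neurons, had 3 Pol II S2P peaks each after knockdown, and 1 and 0 in control. That the receptors are silent in these cells could not be read from the peak lists.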

How the data were processed

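The data were 10 peak lists from chromatin immunoprecipitation sequencing, 1 per library. The authors called peaks against IgG and annotated them with HOMER on mm10, per the submitters' processing notes and, for the annotation, per the file headers. How fragments with several placements were handled, the aligner, the settings and HOMER's version were not given in the sources used here. Library preparation took 100 ng of DNA and 18 PCR cycles, so fragments are not independent molecules and intervals cover counting error only. The deposited score of a peak is the authors' value; per the file headers a peak also carries a class, a named gene and a distance to its start. Scores were whole multiples of 1 step in each list (100% within 0.05, the top 1% set aside), read as 1 tag. Depth follows from the step only if the scores are scaled to 10000000 tags.

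Members were matched by name. Of 1004 names, 990 were found in the RefSeq gene table. Nearest starts for the genome share used 29941 genes, 23290 with a start from the promoter table and 6651 placed at the gene's middle. Shares have 95% Wilson intervals, differences Newcombe intervals. Overlap meant 1 bp or more. Exact permutation tests were run over libraries. Named were the 2 best-scoring members and the best promoter member of each list, the most shared sites, the receptors named in all TDP-43 controls, 4 receptors with roles outside the nose and the 6 largest clusters. Members and lists were chosen with earlier results of these data known, and motifs were searched in promoter windows alone, a genome sequence being not used here. Alternatives were the median score, lists of equal length, no pseudogene names, members within 50 kb, no low-complexity or satellite peaks, protein-coding starts, 50% overlap and each TDP-43 control left out. Measures were tested on simulated data. Python 3.11.15, pandas 2.3.3, numpy 2.4.6, scipy 1.17.1 and matplotlib 3.10.9 were used.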

Additional observations from a re-analysis of the deposited data

Results flagged for a closer look

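The LINE share of olfactory receptor peaks differed in sign between antibodies. Relative to control, siMyolinc differed by -5.87 percentage points with TDP-43, -2.06 with MyoD and -14.1 with Pol II S2P, but by 3.99 with Myogenin, and all 3 TDP-43 controls lay on the same side of the siMyolinc value. The intergenic share differed by 1.94 percentage points with MyoD, by -1.16 with Myogenin and by -7.22 with Pol II S2P. The differences between antibodies were not tested, and all antibodies but TDP-43 had 1 library per condition.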

How the results depend on the processing

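Under the alternatives 44 values kept their direction and their side of the threshold, 2 turned, 2 passed the threshold and 1 moved. Keeping scores from the median up, the TDP-43 difference in share turned to 0.0130 percentage points, and with a control left out it ranged from -0.105 to -0.0510. Over 4 antibodies the difference was -0.234 with lists of equal length, past the threshold, and -0.155 to -0.141 with a TDP-43 control left out, past it without replicate 1 alone (both p-values are the smallest those labelings can give). It did not pass with scores from the median up (-0.166, exact permutation p = 0.1875). Without satellite, simple and low-complexity repeats it was -0.138 (exact permutation p = 0.09375). The intergenic share of TDP-43 members, siMyolinc minus control, turned to 2.49 percentage points in lists of equal length. The median ratio of peak share to genome share was 0.563 with scores from the median up, against 0.625 in whole lists. The cause of these changes was not tested. No paired analysis was possible because the labels pair no siMyolinc library with a control library, and all antibodies but TDP-43 had 1 library per condition. The TDP-43 lists and the Myogenin siMyolinc and Pol II S2P control lists held 57 to 187 members each, which limits the precision of their shares.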
